A study of Mus musculus with 24 samples.

Results

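The G2 and mitosis genes described here are 46 genes that encode the kinases, cyclins, checkpoint proteins, kinetochore and spindle parts with which a cell enters mitosis and divides. They were picked by symbol from the 26267 genes of the deposited table. All 46 were found, and all 46 passed the filter on low values, so each was among the 12628 genes tested. The RNA came from LSK cells, bone marrow cells sorted as lacking lineage markers and carrying Sca-1 and Kit, a fraction that holds blood stem cells and early progenitors. The series asks, by its title, how Mdm4 overexpression acts in Fancg-deficient mice. Fancg encodes a part of the Fanconi anaemia core complex, which acts in DNA crosslink repair, and Mdm4 encodes an inhibitor of p53.

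The mice were wild type (WT), FancgKO, Mdm4Tg (an Mdm4 transgene) or FancgKO_Mdm4Tg (both), and received PBS, the vehicle, or poly(I:C), written Poly(IC) in the labels, a synthetic double-stranded RNA that acts as an interferon inducer. The PBS groups held 4 libraries each for WT and FancgKO and 3 each for FancgKO_Mdm4Tg and Mdm4Tg. The poly(I:C) groups held 3 each for WT and FancgKO and 2 each for the genotypes with the transgene. Strain, age, dose, time after injection, the deleted Fancg exons and the promoter of the transgene are not given in the sources used here. Nothing says that the libraries of a group came from separate animals, so a p-value here speaks to the scatter among these libraries alone, which may be technical.

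As background, cyclin A and then cyclin B bind Cdk1, and the active kinase drives entry into mitosis together with Plk1 and the Aurora kinases. The spindle checkpoint holds anaphase back until every kinetochore is attached, and the anaphase-promoting complex then marks cyclin B and securin for destruction. Messenger RNA of most of these genes rises in G2 and falls after division, so in bulk RNA their level follows how many cells are in G2 and mitosis. Most blood stem cells in the adult marrow are quiescent, while progenitors in the LSK fraction divide often. Throughout, a change in the number of cells in G2 and mitosis and a change of RNA per cell cannot be told apart.

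Many of these promoters are known to share 2 elements, the cell cycle homology region (CHR, TTTGAA or TTCAAA on the other strand), bound by the DREAM and MuvB complexes, and CCAAT boxes (CCAAT or ATTGG), bound by NF-Y. The 100 bases before the RefSeq start of 8 members are shown: Cdk1, Ccnb1, Ccnb2, Plk1, Aurka and Ube2c as genes that passed the test described below, and Cdc20 and Top2a as genes that did not. They were chosen with the results known, so what they share says nothing of the set, whose shares follow. Sequences are RefSeq's, build GRCm38.p6, 5′ to 3′ on the gene's strand, with CHR and CCAAT matches on either strand in capitals.
Cdk1 promoter, chr10:69352913-69353012, minus strand: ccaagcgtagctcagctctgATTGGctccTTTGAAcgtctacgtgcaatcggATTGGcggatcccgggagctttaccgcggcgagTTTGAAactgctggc
Ccnb1 promoter, chr13:100786487-100786586, minus strand: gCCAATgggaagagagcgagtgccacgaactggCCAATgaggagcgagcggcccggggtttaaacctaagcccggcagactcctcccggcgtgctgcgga
Ccnb2 promoter, chr9:70421555-70421654, minus strand: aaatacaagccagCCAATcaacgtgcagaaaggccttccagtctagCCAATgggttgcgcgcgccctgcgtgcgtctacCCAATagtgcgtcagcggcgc
Plk1 promoter, chr7:122159335-122159434, plus strand: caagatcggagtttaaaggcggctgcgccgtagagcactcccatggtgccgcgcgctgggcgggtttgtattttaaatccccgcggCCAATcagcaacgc
Aurka promoter, chr2:172370571-172370670, minus strand: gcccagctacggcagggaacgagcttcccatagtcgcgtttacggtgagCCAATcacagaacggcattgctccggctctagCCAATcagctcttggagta
Ube2c promoter, chr2:164769829-164769928, plus strand: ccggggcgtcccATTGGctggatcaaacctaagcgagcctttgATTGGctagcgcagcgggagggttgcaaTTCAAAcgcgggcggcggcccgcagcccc
Cdc20 promoter, chr4:118437344-118437443, minus strand: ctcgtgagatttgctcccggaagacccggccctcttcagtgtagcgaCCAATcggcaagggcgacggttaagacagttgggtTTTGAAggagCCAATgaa
Top2a promoter, chr11:99024190-99024289, minus strand: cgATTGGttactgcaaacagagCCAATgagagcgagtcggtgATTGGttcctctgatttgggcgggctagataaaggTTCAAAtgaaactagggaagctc
Plk1 carries 1 CCAAT match in these letters and the other 7 genes at least 2 each. Cdk1, Ube2c, Cdc20 and Top2a also carry a CHR match in this stretch, and Ccnb1, Ccnb2, Plk1 and Aurka do not. Past the start, outside the letters shown, Ccnb2, Plk1 and Aurka carry one, beginning at base 5, 31 and 33. Ccnb1 has none in the wider window described next.

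A window from 250 bases before to 50 bases after the start was matched for 38 of the 46 members. Smc4, Ccna2, Kif20a, Aurkb, Incenp, Cdc25c, Dlgap5 and Tpx2 had none in the table. Ect2 and Gtse1 had 2 windows each, and a match in either counted for the gene. The CHR letters were matched in 26 of the 38 members (68.4%), against 20.2% of the 27025 RefSeq genes with a window. Within 50 bases of the start they were in 23 (60.5%), against 5.72%. CCAAT was matched in 28 members (73.7%), against 41.1%, and at least 2 copies in 21 (55.3%), against 13.3%. Both elements were in 22 (57.9%), against 7.97% of all genes. A match is a description of letters and shows no bound site. Of the 14 members with a window that passed the test for poly(I:C), given below, 8 held the CHR letters (57.1%), and of the 24 that did not pass, 18 did (75%). For CCAAT the order was the other way, with 12 of 14 (85.7%) against 16 of 24 (66.7%), and for both elements the shares were 57.1% and 58.3%. None of these differences was tested.

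Libraries held between 807686 and 8229715 reads (median 2583130), and the deepest were among the poly(I:C) ones. Mdm4 stood at a normalised count of 5023 to 7105 with the transgene and at 750.9 to 1293 without it. Fancg stood at 26.13 to 71.41 in genotypes with FancgKO and at 41.25 to 78.37 in the others, and the total over the gene does not check the deletion. Kit (1483 to 2414) and Cd34 (1153 to 2457) were high in every library, while Ly6a, which encodes Sca-1, was only 11.69 to 45.91. Library titles end in d (replicates 6 and 7) or d_2 (replicates 2, 4 and 8). What the ending marks is not stated, and it cannot be told apart from the replicate number. Xist was at 362.5 or more in 6 libraries and at most 24.78 in 18, so results were also taken over those 18. The 6 were replicates 6 and 7 of FancgKO with PBS and of WT and FancgKO with poly(I:C), all of ending d. No WT library with PBS was among them. Leaving them out thus also changes the mix of treatment, genotype and ending.

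Members spanned a wide range of levels. Per kilobase of exon, the mean normalised count in WT with PBS had a median of 42.1 over the 46 genes. Cdc25c, a phosphatase that activates Cdk1, was lowest at 8.07 per kilobase, and Top2a, the topoisomerase that untangles sister chromatids, was highest at 270 per kilobase. Mki67 (218), the proliferation marker that coats mitotic chromosomes, and Smc4 (216), a condensin subunit, came next on that scale, followed by Ccna2 (122), Ccnb2 (115) and Kif11 (107). No member was at 0 in any library, and the smallest number of reads behind a value was 11, for Cdc25c.

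Poly(I:C) was compared with PBS as the mean of the 4 genotypes' differences. Of the 46 genes, 16 passed an adjusted p of 0.05 in limma on log2(normalised count + 1), with Benjamini-Hochberg adjustment over all 12628 genes. These were 15 higher and 1 lower. Over all genes tested 23.6% passed (11.9% higher and 11.6% lower). The difference was positive in 41 of the 46 (51.8% of all genes tested), with a median of 0.20 on the log2 scale, against a median of 0.01 over all genes tested. An unadjusted p under 0.05 was found for 24 (37.5% of all genes tested). The sizes were modest, from -0.21 for Kif23 to 0.58 for Gtse1. In no member did the 10 poly(I:C) libraries lie wholly apart from the 14 PBS libraries (0.0713% of all genes tested did), but in 19 members every poly(I:C) library was above the PBS median (11% of all genes tested).

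The count by role ran from 7 of 10 to none of 3. Among the kinases, cyclins and regulators of mitotic entry, 7 of 10 were higher (median difference 0.35). In the spindle checkpoint and anaphase-promoting complex 2 of 6 were higher (median 0.22), and in the centromere, kinetochore and passenger complex group 3 of 10 (median 0.17). Of motors and spindle proteins, 3 of 13 were higher (median 0.16). None of 3 chromosome structure genes passed (median 0.13, with 1 at an unadjusted p under 0.05), and of 4 cytokinesis genes 1 was lower (median 0.12). These small counts are to be read against the 23.6% of all genes tested that passed (11.9% higher and 11.6% lower). Differences between the roles were not tested.

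**Figure D1:**
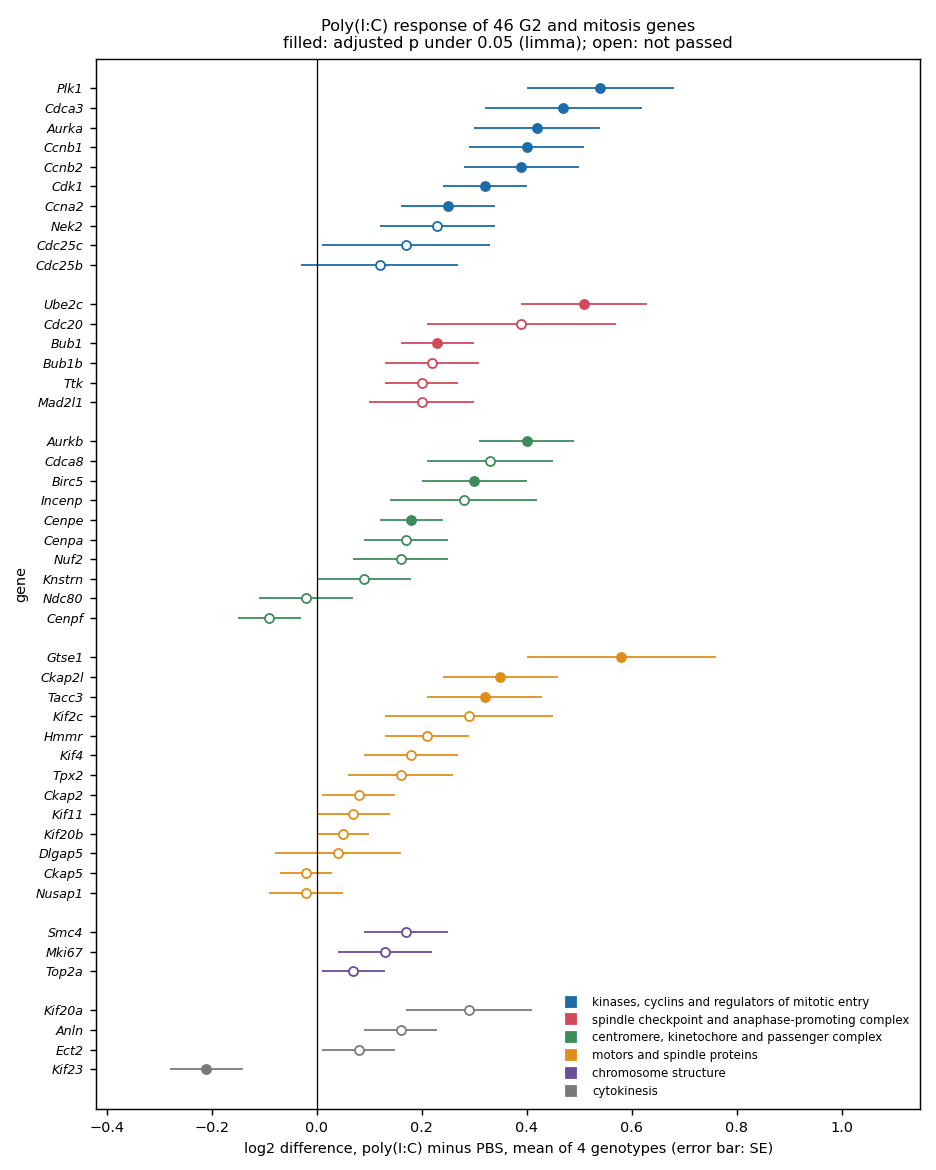
Difference between poly(I:C) and PBS for each of the 46 genes, averaged over 4 genotypes (x axis, log2 units; bars are standard errors), grouped and coloured by role; filled points passed an adjusted p of 0.05 in limma. Plk1 (0.54), Ube2c (0.51) and Gtse1 (0.58) lie farthest right, and Kif23 (-0.21) is the filled point left of 0.

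The count depended on the libraries. It was 7 (all higher; 12.3% of all genes) without FancgKO_Mdm4Tg poly(I:C) replicate 8, 10 (all higher; 16%) without FancgKO poly(I:C) replicate 6 and 10 (9 higher, 1 lower; 17.9%) without Mdm4Tg poly(I:C) replicate 8. With reads thinned to 807686 in every library, then rescaled to equal totals, it was 5 (14.7% of all genes). These were Plk1, Ccnb1, Ccnb2, Aurkb and, lower, Kif23. The thinning was a single random draw, and how far its values vary between draws was not tested. Among those that no longer passed, the thinned difference was 0.54 for Gtse1 (0.58 before thinning), 0.43 for Cdca3 (0.47), 0.34 for Aurka (0.42) and 0.23 for Ccna2 (0.25). It shrank more for the rest, to 0.30 for Ube2c (0.51), 0.18 for Cdk1 (0.32), 0.18 for Ckap2l (0.35) and 0.16 for Birc5 (0.30). Bub1 went to 0.12 (0.23), Tacc3 to 0.19 (0.32) and Cenpe to 0.12 (0.18). Over the 18 libraries with low Xist it was 9, all higher (19.2% of all genes). Aurkb, Ube2c, Plk1, Cdk1 and Aurka passed in each of the 24 fits that left out 1 library.

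Per-library values below are normalised counts in order of replicate number, and positions are on GRCm38. Cdk1 (chromosome 10, 69335146 to 69352938) encodes the kinase at the centre of mitotic entry. Cdk1 with PBS stood at 236.5, 326.5, 279.3 and 249.3 in WT, at 233.4, 272, 352 and 235.2 in FancgKO, at 259.9, 283.7 and 329.8 in FancgKO_Mdm4Tg and at 223.5, 280.9 and 226.4 in Mdm4Tg. Cdk1 with poly(I:C) stood at 341.4, 337.2 and 362.3 in WT, at 357.1, 301.8 and 356.9 in FancgKO, at 305.5 and 373.1 in FancgKO_Mdm4Tg and at 314.4 and 310.4 in Mdm4Tg. All 10 poly(I:C) libraries were above the PBS median of 265.9, although the top 3 PBS libraries, at 352, 329.8 and 326.5, reached into their range. Averaged over the genotypes, the log2 difference was 0.32 ± 0.08 (SE), or 1.25-fold on the scale of the count plus 1, at limma adjusted p = 0.0101.

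Ccnb1 (chromosome 13, 100778650 to 100786570) encodes cyclin B1, the main partner of Cdk1 in mitosis. Ccnb1 with PBS stood at 120.2, 182.3, 125.4 and 141.2 in WT, at 133.1, 162.1, 195.7 and 182.9 in FancgKO, at 145.8, 150.1 and 129.2 in FancgKO_Mdm4Tg and at 112.9, 155.2 and 125.8 in Mdm4Tg. Ccnb1 with poly(I:C) stood at 184.7, 211.5 and 226.2 in WT, at 204.8, 134.6 and 229.1 in FancgKO, at 184.5 and 257.1 in FancgKO_Mdm4Tg and at 132.6 and 189.4 in Mdm4Tg. Among the treated libraries, FancgKO replicate 7 (134.6) and Mdm4Tg replicate 7 (132.6) were below the PBS median of 143.5, and the other 8 were above it. Ccnb1 rose by 0.40 ± 0.11 (limma adjusted p = 0.0125).

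Ccnb2 (chromosome 9, 70407692 to 70421547) encodes cyclin B2, the second B-type partner. Ccnb2 with PBS stood at 145, 219.4, 178.9 and 161.1 in WT, at 145.7, 136, 243.9 and 248.3 in FancgKO, at 167.1, 216.5 and 180.2 in FancgKO_Mdm4Tg and at 112.9, 165 and 135.2 in Mdm4Tg. Ccnb2 with poly(I:C) stood at 221, 201.1 and 226.8 in WT, at 238.2, 199.7 and 257.6 in FancgKO, at 216.9 and 267.9 in FancgKO_Mdm4Tg and at 180.1 and 230.3 in Mdm4Tg. PBS libraries ranged more widely than poly(I:C) libraries, with FancgKO replicates 6 and 7 as high as most treated ones. Ccnb2 rose by 0.39 ± 0.11 (limma adjusted p = 0.017).

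Plk1 (chromosome 7, 122159439 to 122169873) encodes the polo-like kinase that acts from centrosome maturation to cytokinesis. Plk1 with PBS stood at 72.48, 121.2, 108.7 and 77.31 in WT, at 64.22, 81.97, 119.8 and 137.2 in FancgKO, at 50.38, 94.87 and 51.01 in FancgKO_Mdm4Tg and at 69.51, 78.57 and 62.26 in Mdm4Tg. Plk1 with poly(I:C) stood at 144.3, 109.4 and 125.8 in WT, at 150.3, 124.8 and 100.5 in FancgKO, at 104.2 and 108.5 in FancgKO_Mdm4Tg and at 110.1 and 105.3 in Mdm4Tg. Every poly(I:C) library was at 100.5 or more, while 10 of the 14 PBS libraries were below that. Plk1 rose by 0.54 ± 0.14, or 1.45-fold (limma adjusted p = 0.00891).

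Aurka (chromosome 2, 172356190 to 172370535) encodes the Aurora kinase of the spindle poles. Aurka with PBS stood at 47.68, 103.5, 71.91 and 66.41 in WT, at 57.96, 63.34, 97.87 and 81.67 in FancgKO, at 79.55, 91.42 and 62.91 in FancgKO_Mdm4Tg and at 46.34, 62.86 and 55.34 in Mdm4Tg. Aurka with poly(I:C) stood at 100.6, 99.08 and 90.74 in WT, at 116.4, 82.49 and 83.07 in FancgKO, at 95.85 and 96.7 in FancgKO_Mdm4Tg and at 82.56 and 81.91 in Mdm4Tg. All 10 treated libraries exceeded the PBS median of 64.87, and the highest PBS libraries were replicates 6 of WT and FancgKO. Aurka rose by 0.42 ± 0.12 (limma adjusted p = 0.0173).

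The other members of this role were described by their ranges. Cdca3, a trigger of mitotic entry, stood at 45.77 to 110.6 in PBS libraries (median 78.53) and at 89.86 to 126.3 in poly(I:C) libraries (median 108.8) and rose by 0.47 ± 0.15 (limma adjusted p = 0.0252). Ccna2, cyclin A2, rose by 0.25 ± 0.09 (limma adjusted p = 0.0447), and it passed in 9 of the 24 fits that left out 1 library. The centrosome kinase Nek2 (0.23 ± 0.11), the phosphatases Cdc25c (0.17 ± 0.16) and Cdc25b (0.12 ± 0.15) did not pass, at limma adjusted p of 0.137, 0.468 and 0.562.

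Aurkb (chromosome 11, 69045647 to 69051664), the kinase of the chromosomal passenger complex that corrects wrong attachments, had the smallest adjusted p of the 46. Aurkb with PBS stood at 124, 221.2, 160.5 and 136.3 in WT, at 169.2, 145.3, 203 and 202.5 in FancgKO, at 169.7, 164.7 and 149.6 in FancgKO_Mdm4Tg and at 130.8, 145.4 and 138.3 in Mdm4Tg. Aurkb with poly(I:C) stood at 242.4, 180.4 and 232.2 in WT, at 243.2, 199.7 and 230.2 in FancgKO, at 197.7 and 212.3 in FancgKO_Mdm4Tg and at 191.8 and 190 in Mdm4Tg. Every poly(I:C) library was above the PBS median of 155.1, and the 3 highest PBS libraries, WT replicate 6 and FancgKO replicates 6 and 7, lay within their range. Aurkb rose by 0.40 ± 0.09, or 1.32-fold (limma adjusted p = 0.00494).

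**Figure D2:**
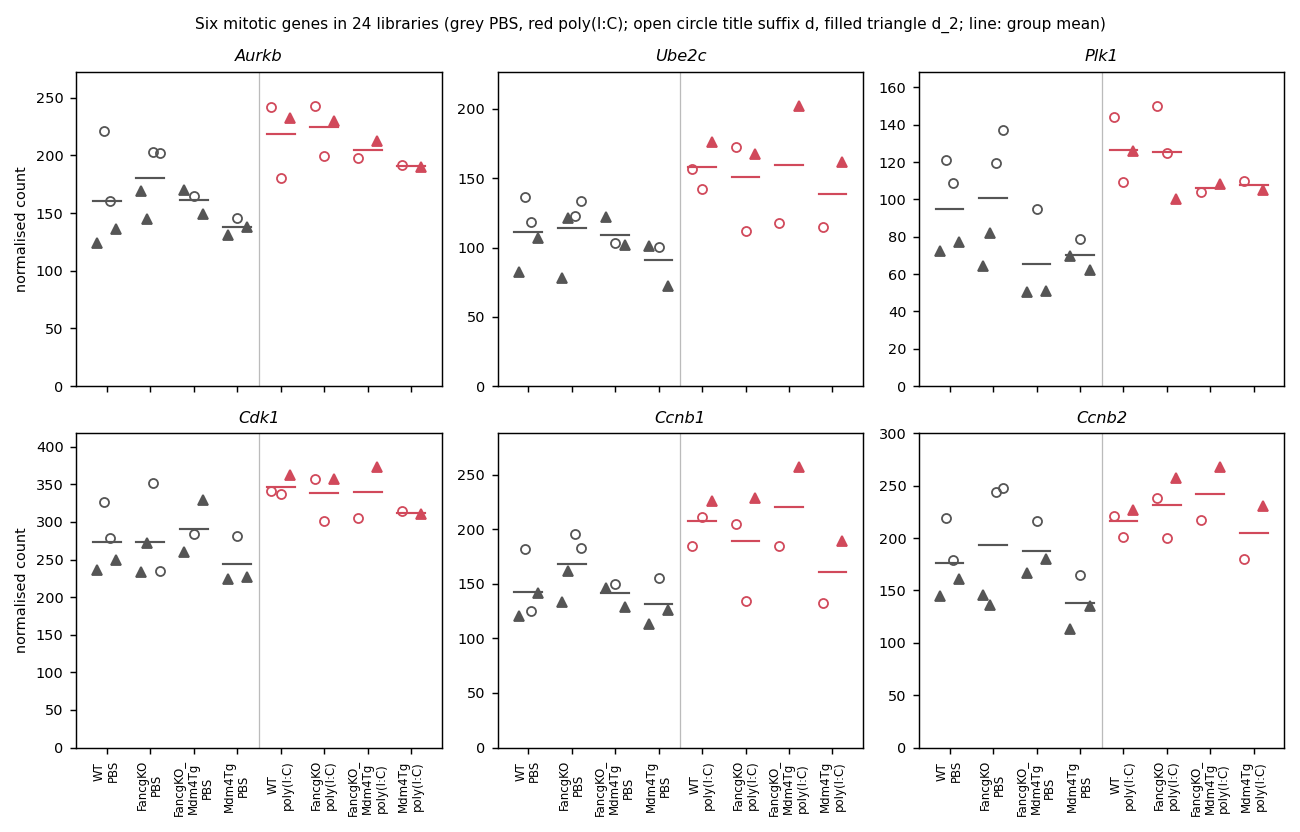
Normalised counts (linear y axes from 0) of Aurkb, Ube2c, Plk1, Cdk1, Ccnb1 and Ccnb2 in each of the 24 libraries by group; open circles have the title ending d, filled triangles d_2, and lines are group means. Ccnb2 triangles lie at 112.9 to 180.2 with PBS and at 226.8 to 267.9 with poly(I:C), while Ccnb2 circles overlap at 165 to 248.3 and 180.1 to 238.2.

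Birc5 (chromosome 11, 117849251 to 117855743) encodes survivin, another passenger subunit. Birc5 with PBS stood at 85.83, 115, 78.6 and 91.19 in WT, at 133.1, 96.87, 119.8 and 98.01 in FancgKO, at 148.5, 114.7 and 120.7 in FancgKO_Mdm4Tg and at 94.17, 68.75 and 76.72 in Mdm4Tg. Birc5 with poly(I:C) stood at 117.9, 94.64 and 137.4 in WT, at 133.8, 117.2 and 117.2 in FancgKO, at 123.4 and 138.7 in FancgKO_Mdm4Tg and at 115.9 and 138.6 in Mdm4Tg. The treated libraries lay within the PBS range, which FancgKO_Mdm4Tg replicate 2 topped at 148.5. Birc5 rose by 0.30 ± 0.10 (limma adjusted p = 0.0295), and the gene passed in 20 of the 24 fits without 1 library. The passenger scaffolds Cdca8 (0.33 ± 0.12) and Incenp (0.28 ± 0.14) did not pass, at limma adjusted p of 0.0558 and 0.152.

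Cenpa (chromosome 5, 30666777 to 30674830) encodes the histone H3 variant that marks centromeres. Cenpa with PBS stood at 253.7, 348.6, 311 and 282.5 in WT, at 314.8, 331.6, 360.8 and 356.1 in FancgKO, at 289, 387.2 and 304.3 in FancgKO_Mdm4Tg and at 260.8, 392.9 and 252.8 in Mdm4Tg. Cenpa with poly(I:C) stood at 394.1, 425.9 and 326.3 in WT, at 338.6, 337.6 and 332.7 in FancgKO, at 365.4 and 364.1 in FancgKO_Mdm4Tg and at 356.1 and 310.1 in Mdm4Tg. Here 9 of 10 treated libraries were above the PBS median of 312.9, but Mdm4Tg and FancgKO_Mdm4Tg replicates 7 with PBS were higher than most of them. The difference of 0.17 ± 0.08 did not pass (limma adjusted p = 0.144). Cenpe, the kinetochore motor, was the third called gene of this role at 0.18 ± 0.06 (limma adjusted p = 0.04), and passed in 9 of the 24 fits without 1 library.

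Ndc80 (chromosome 17, 71496100 to 71526857), which encodes the kinetochore subunit that grips microtubules, had a difference near 0. Ndc80 with PBS stood at 114.4, 104.4, 96.99 and 90.69 in WT, at 93.98, 111.8, 112.5 and 124.1 in FancgKO, at 95.46, 103.5 and 107.1 in FancgKO_Mdm4Tg and at 86.7, 90.36 and 67.92 in Mdm4Tg. Ndc80 with poly(I:C) stood at 107.2, 88.72 and 101.7 in WT, at 85.9, 112.9 and 102.8 in FancgKO, at 73.08 and 110.8 in FancgKO_Mdm4Tg and at 96.73 and 98.85 in Mdm4Tg. Treated and control libraries spanned much the same values, and the difference was -0.02 ± 0.09 (limma adjusted p = 0.892). Nuf2, its partner in the Ndc80 complex, was at 0.16 ± 0.09, Knstrn, a spindle and kinetochore adaptor, at 0.09 ± 0.09, and Cenpf, a large kinetochore protein, at -0.09 ± 0.06. None of these 3 passed, with limma adjusted p of 0.176, 0.487 and 0.232.

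Ube2c (chromosome 2, 164769898 to 164778822) encodes the ubiquitin-conjugating enzyme that serves the anaphase-promoting complex. Ube2c with PBS stood at 82.01, 136.3, 118.7 and 107 in WT, at 78.32, 121.1, 122.7 and 133.9 in FancgKO, at 122, 103.5 and 102 in FancgKO_Mdm4Tg and at 100.9, 100.2 and 72.32 in Mdm4Tg. Ube2c with poly(I:C) stood at 156.7, 142 and 176.2 in WT, at 172.8, 111.8 and 167.3 in FancgKO, at 117.4 and 202.4 in FancgKO_Mdm4Tg and at 115.1 and 162 in Mdm4Tg. All 10 treated libraries were above the PBS median of 105.3, and FancgKO_Mdm4Tg replicate 8 was the highest at 202.4. Ube2c rose by 0.51 ± 0.12, or 1.42-fold (limma adjusted p = 0.00701).

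Cdc20 (chromosome 4, 118432901 to 118437352) encodes the activator through which the checkpoint restrains that complex. Cdc20 with PBS stood at 55.31, 123, 102 and 68.89 in WT, at 40.73, 89.42, 134.4 and 143.7 in FancgKO, at 76.9, 123.3 and 74.81 in FancgKO_Mdm4Tg and at 62.03, 86.43 and 67.92 in Mdm4Tg. Cdc20 with poly(I:C) stood at 128.6, 96.12 and 102 in WT, at 134.8, 140 and 92.18 in FancgKO, at 153.4 and 106.1 in FancgKO_Mdm4Tg and at 89.23 and 85.61 in Mdm4Tg. Every treated library exceeded the PBS median of 81.67, yet 5 PBS libraries stood above 100. The difference of 0.39 ± 0.18 did not pass (limma adjusted p = 0.123).

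Bub1b (chromosome 2, 118598211 to 118641591) encodes the checkpoint protein BubR1. Bub1b with PBS stood at 249.9, 340.7, 282.6 and 246.3 in WT, at 255.3, 260.8, 341.8 and 326.7 in FancgKO, at 214.8, 309.6 and 226.1 in FancgKO_Mdm4Tg and at 243.7, 312.3 and 257.8 in Mdm4Tg. Bub1b with poly(I:C) stood at 348, 337.2 and 298.8 in WT, at 362.6, 334.3 and 286.8 in FancgKO, at 352.2 and 306.6 in FancgKO_Mdm4Tg and at 324.4 and 254.4 in Mdm4Tg. Treated libraries ran from 254.4 to 362.6 and PBS libraries from 214.8 to 341.8, and the difference of 0.22 ± 0.09 did not pass (limma adjusted p = 0.0688). Bub1, the related checkpoint kinase, rose by 0.23 ± 0.07 (limma adjusted p = 0.0267). The checkpoint kinase Ttk (0.20 ± 0.07) and Mad2l1 (0.20 ± 0.10), which encodes Mad2, did not pass, at limma adjusted p of 0.0531 and 0.162.

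Kif11 (chromosome 19, 37376403 to 37421859) encodes the motor that pushes spindle poles apart. Kif11 with PBS stood at 698.1, 813.2, 827.8 and 852.9 in WT, at 811.4, 886.7, 898.3 and 803.6 in FancgKO, at 957.3, 796.9 and 870.5 in FancgKO_Mdm4Tg and at 726.5, 907.5 and 791.7 in Mdm4Tg. Kif11 with poly(I:C) stood at 843.5, 820.7 and 975.3 in WT, at 875.4, 821.7 and 940.7 in FancgKO, at 844.7 and 1000 in FancgKO_Mdm4Tg and at 740.5 and 887.8 in Mdm4Tg. The treated range of 740.5 to 1000 lay almost on the PBS range of 698.1 to 957.3, and the difference of 0.07 ± 0.07 did not pass (limma adjusted p = 0.459).

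Nusap1 (chromosome 2, 119618298 to 119651244), Dlgap5 (chromosome 14, 47387779 to 47418407) and Ckap5 (chromosome 2, 91526762 to 91620664) encode microtubule-binding spindle proteins and, with Ndc80, had the largest adjusted p-values of the set. Nusap1 with PBS stood at 320.4, 345.1, 289.3 and 323.1 in WT, at 282, 294.3, 324.3 and 375.7 in FancgKO, at 336.8, 320.8 and 355.3 in FancgKO_Mdm4Tg and at 279.5, 253.4 and 276.7 in Mdm4Tg. Nusap1 with poly(I:C) stood at 279.5, 337.2 and 330.7 in WT, at 321.6, 297.4 and 310.3 in FancgKO, at 288.7 and 351.9 in FancgKO_Mdm4Tg and at 254.3 and 316.9 in Mdm4Tg. Treated and control libraries covered nearly the same range for Nusap1, and the difference was -0.02 ± 0.07 (limma adjusted p = 0.894). Dlgap5 with PBS stood at 116.3, 138, 147.2 and 113.5 in WT, at 130, 128.5, 184 and 147 in FancgKO, at 100.8, 157.8 and 110.5 in FancgKO_Mdm4Tg and at 92.68, 180.7 and 109.4 in Mdm4Tg. Dlgap5 with poly(I:C) stood at 138.5, 155.3 and 108.6 in WT, at 131.8, 163.9 and 127.5 in FancgKO, at 153.4 and 114.1 in FancgKO_Mdm4Tg and at 134.3 and 115.2 in Mdm4Tg. FancgKO replicate 6 and Mdm4Tg replicate 7 with PBS had more Dlgap5 than any treated library, and the difference was 0.04 ± 0.12 (limma adjusted p = 0.843). Ckap5 with PBS stood at 770.5, 780.4, 722.4 and 762.7 in WT, at 808.3, 814.1, 838.4 and 748.1 in FancgKO, at 771.7, 849.5 and 763.4 in FancgKO_Mdm4Tg and at 731.7, 809.3 and 766.6 in Mdm4Tg. Ckap5 with poly(I:C) stood at 751.2, 699.4 and 767.2 in WT, at 788, 858.6 and 769.6 in FancgKO, at 845.8 and 742 in FancgKO_Mdm4Tg and at 724.7 and 758.8 in Mdm4Tg. The Ckap5 ranges overlapped almost wholly, and the difference was -0.02 ± 0.05 (limma adjusted p = 0.789).

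Gtse1, a microtubule-associated protein of G2 and S phase, had the largest difference of the 46. It stood at 23.57 to 87.64 in PBS libraries (median 36.99) and at 44.96 to 82.4 in poly(I:C) libraries (median 62.14), a rise of 0.58 ± 0.18 (limma adjusted p = 0.0252). Ckap2l, a spindle protein, rose by 0.35 ± 0.11 (limma adjusted p = 0.0251), and Tacc3, which stabilises spindle microtubules with Aurora A, by 0.32 ± 0.11 (limma adjusted p = 0.032). The remaining spindle genes did not pass. They ran from 0.05 ± 0.05 for the motor Kif20b through Ckap2 (0.08), Tpx2 (0.16), Kif4 (0.18) and Hmmr (0.21) to Kif2c (0.29 ± 0.16), a microtubule depolymerase. Kif4, a chromosome motor, lies on the X chromosome.

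The 3 chromosome structure genes were the 3 most abundant members per kilobase. Top2a with PBS stood at 2348, 2681, 2206 and 2490 in WT, at 2577, 2716, 2767 and 2607 in FancgKO, at 2819, 2492 and 2598 in FancgKO_Mdm4Tg and at 2278, 2416 and 2280 in Mdm4Tg. Top2a with poly(I:C) stood at 2597, 2440 and 2904 in WT, at 2720, 2441 and 2758 in FancgKO, at 2576 and 2898 in FancgKO_Mdm4Tg and at 2331 and 2742 in Mdm4Tg. Ranges overlapped over most of their length, and the Top2a difference of 0.07 ± 0.06 did not pass (limma adjusted p = 0.403). Mki67 (chromosome 7, 135689784 to 135716361) followed. Mki67 with PBS stood at 2083, 2554, 2090 and 2043 in WT, at 2018, 2547, 2873 and 2568 in FancgKO, at 1944, 2492 and 1680 in FancgKO_Mdm4Tg and at 1992, 2485 and 1982 in Mdm4Tg. Mki67 with poly(I:C) stood at 2646, 2523 and 2088 in WT, at 2645, 2712 and 2335 in FancgKO, at 2750 and 1974 in FancgKO_Mdm4Tg and at 2446 and 2186 in Mdm4Tg. The 4 lowest poly(I:C) values were the replicates 8, and the difference of 0.13 ± 0.09 did not pass (limma adjusted p = 0.292). Smc4 was at 0.17 ± 0.08 (limma adjusted p = 0.126).

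Anln (chromosome 9, 22332012 to 22389188) encodes anillin, a scaffold of the contractile ring. Anln with PBS stood at 318.5, 346, 342.8 and 335.5 in WT, at 427.6, 387.5, 447 and 428 in FancgKO, at 400.4, 392.4 and 290.7 in FancgKO_Mdm4Tg and at 324.4, 424.3 and 286.8 in Mdm4Tg. Anln with poly(I:C) stood at 383.4, 439.2 and 393 in WT, at 432.5, 424.4 and 407.4 in FancgKO, at 400.2 and 402.8 in FancgKO_Mdm4Tg and at 423.6 and 368 in Mdm4Tg. All 10 treated libraries were above the PBS median of 366.7, but 4 PBS libraries exceeded 424, and the difference of 0.16 ± 0.07 did not pass (limma adjusted p = 0.106). Kif20a, a motor of the central spindle, was at 0.29 ± 0.12 (limma adjusted p = 0.0749) and Ect2, the exchange factor that activates RhoA for furrowing, at 0.08 ± 0.07 (limma adjusted p = 0.455).

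Kif23 (chromosome 9, 61915905 to 61946774), the centralspindlin motor needed for cytokinesis, is shown because it was the 1 called fall, and was chosen after its values were seen. Kif23 with PBS stood at 295.6, 315.9, 366.2 and 362.8 in WT, at 386.9, 354, 340.3 and 405.1 in FancgKO, at 387.2, 373.4 and 338.3 in FancgKO_Mdm4Tg and at 378.9, 371.3 and 341.5 in Mdm4Tg. Kif23 with poly(I:C) stood at 258.9, 317.9 and 304.4 in WT, at 308.1, 345.2 and 314.8 in FancgKO, at 355.8 and 270.7 in FancgKO_Mdm4Tg and at 295.2 and 333.8 in Mdm4Tg. All 10 treated libraries were below the PBS median of 364.5. The difference was -0.21 ± 0.07 (limma adjusted p = 0.0306), and it lay between -0.26 and -0.16 when 1 library was left out, passing in 19 of 24 fits. It was negative in each genotype, from -0.24 to -0.19, and was -0.38 ± 0.08 with thinned reads (limma adjusted p = 0.00435). With reads thinned and rescaled to equal totals, 44.8% of all genes had a positive difference, against 51.8% without thinning.

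A per-library summary, the median over the 46 genes of each gene's deviation from its own mean over 24 libraries, showed where the spread lay. With PBS it ran from -0.31 to 0.19 on the log2 scale, and with poly(I:C) from -0.03 to 0.24. The 8 PBS libraries with the title ending d_2 lay between -0.31 and -0.03 (median -0.16). The 6 PBS libraries of ending d lay between -0.10 and 0.19 (median 0.11), about where the poly(I:C) libraries of either ending were (medians 0.11 for 6 libraries of d and 0.14 for 4 of d_2). Depth moved with these classes. The 4 poly(I:C) libraries of d_2 held 5491225 to 8229715 reads, those of d 1697596 to 5267584, and PBS libraries held 949156 to 4801746 (d_2) and 807686 to 2880217 (d). The median difference over the 46 genes was 0.15 with reads thinned to equal depth, against 0.20 without. Thinned reads were also rescaled to equal totals, in place of the authors' scaling. Over all genes tested, 44.8% of differences were then positive, against 51.8% without thinning. The parts of depth, of scaling and of the random draw were not tested.

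**Figure D3:**
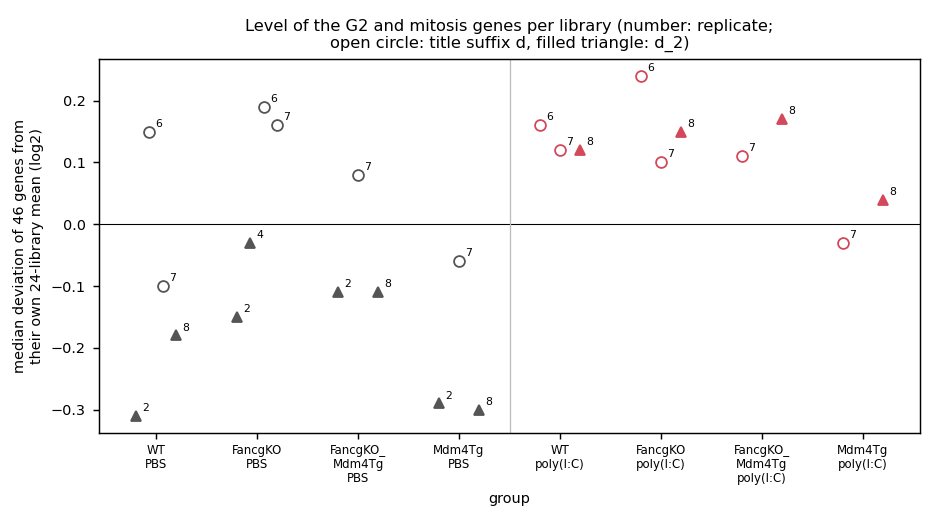
Median over the 46 genes of the log2 deviation from each gene's mean over all libraries (y axis), per library and group; open circles have the title ending d, filled triangles d_2, and numbers are replicate numbers. The 8 PBS triangles lie between -0.31 and -0.03, and 9 of the 10 poly(I:C) libraries lie above 0.

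Within the libraries of ending d alone, none of the 46 genes passed in limma (0% of all genes did), with 1 at an unadjusted p under 0.05 (10.8%), 31 positive differences (51.9%) and a median of 0.04. Within those of ending d_2 alone, 27 passed, all higher, with a median of 0.31, where 34% of all genes passed (17.6% higher). In these fits groups of 1 library are assumed to vary like the others. In d_2 every poly(I:C) library was replicate 8, while the PBS libraries were replicates 2, 4 and 8. For FancgKO with PBS they were replicates 2 and 4 alone. Within d_2, treatment and replicate number thus cannot be fully told apart. The 27 included 14 of the 16 genes called over all libraries, all but Cenpe and Kif23, and added Nek2, Cdc20, Bub1b, Mad2l1, Cenpa, Nuf2, Cdca8, Kif2c, Tpx2, Hmmr, Smc4, Ect2 and Kif20a. Differences were 0.01 in d and 0.74 in d_2 for Ccnb2, 0.07 in d and 0.75 in d_2 for Ccnb1, 0.18 in d and 0.86 in d_2 for Ube2c and 0.21 in d and 0.74 in d_2 for Plk1. Gtse1 (0.62 in d and 0.53 in d_2) and Kif23 (-0.21 in d and -0.22 in d_2) were alike in both.

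The difference between the 2 endings was itself tested with an ending-by-treatment term, added after the data were seen. That term carries the same mix of replicate numbers within d_2. The response of d_2 minus that of d was positive for 43 of the 46 genes (50.5% of all genes) and had an unadjusted p under 0.05 for 20 (19.7% of all genes), but only Ccnb2 passed in limma (0.74 ± 0.13, adjusted p = 0.0444), where 0.103% of all genes passed. In the same model, d_2 libraries with PBS were lower than d libraries for 22 genes and higher for 1, Mad2l1 (median -0.27; 37.2% of all genes passed, 18.8% as lower). The largest such differences were Cdc20 (-0.83), Kif2c (-0.80), Plk1 (-0.66) and Cdca8 (-0.61). With poly(I:C), 7 genes were higher in d_2 (Ccna2, Ccnb1, Ube2c, Mad2l1, Kif11, Smc4 and Ect2) and 5 lower (Cdc25b, Bub1b, Incenp, Dlgap5 and Mki67), with a median of -0.02, and 28.6% of all genes passed.

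**Figure D4:**
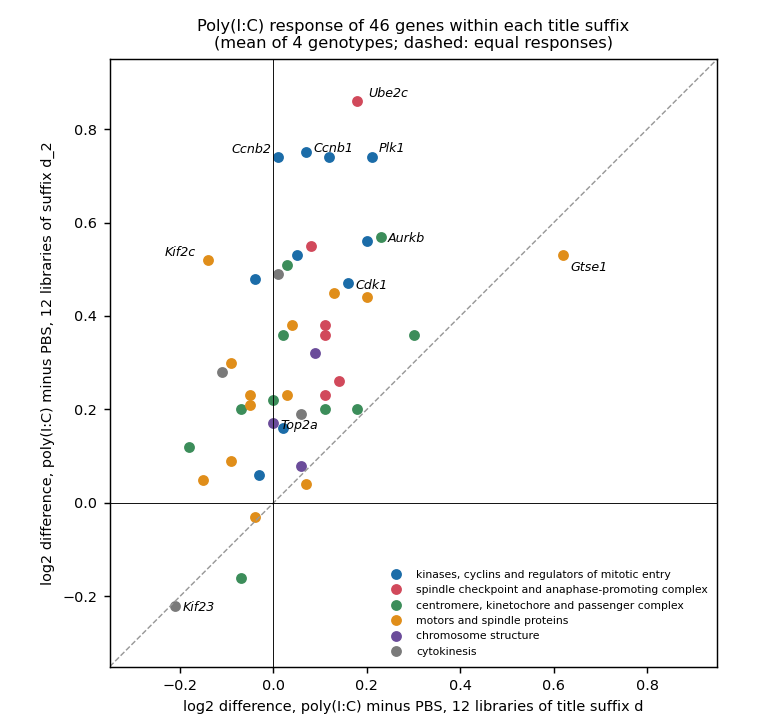
Poly(I:C) minus PBS difference of each of the 46 genes in the libraries of title ending d (x axis, log2) and d_2 (y axis, log2), averaged over genotypes and coloured by role; the dashed line marks equal responses. Most points lie above the line, with Ccnb2 at 0.01 and 0.74, while Gtse1 (0.62 and 0.53) and Kif23 (-0.21 and -0.22) lie near it.

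Genotype by genotype, no member passed in limma, edgeR or DESeq2 in any of the 4. In WT the median difference was 0.27, with 41 positive (49.9% of all genes) and 10 at an unadjusted p under 0.05 in limma, edgeR and DESeq2 alike (14.9% of all genes in limma). The smallest limma adjusted p in WT was 0.166, for Cenpe, and 0.0158% of all genes passed. FancgKO had a median of 0.14, with 34 positive (52.4% of all genes) and 1 at an unadjusted p under 0.05 in each tool (7.24%). FancgKO_Mdm4Tg had a median of 0.21, with 39 positive (52.1%) and 3 at an unadjusted p under 0.05 in each tool (8.57%). Mdm4Tg had a median of 0.21, with 42 positive (50.8%) and 5 at an unadjusted p under 0.05 in limma (12.7%) or 8 in edgeR and in DESeq2. In these 3 genotypes 0% of all genes passed the adjusted test. In WT without PBS replicate 6, Aurkb passed (0.63 ± 0.15, limma adjusted p = 0.0265; 4.12% of all genes). The difference was positive in all 4 genotypes for 30 members (30.5% of all genes tested) and negative in all 4 for 2. Ube2c was even, at 0.53 in WT, 0.40 in FancgKO, 0.50 in FancgKO_Mdm4Tg and 0.59 in Mdm4Tg. Aurkb was at 0.47, 0.33, 0.34 and 0.46, and Cdk1 at 0.36, 0.32, 0.22 and 0.37 in the same order. Ccnb1 was less even, at 0.56, 0.15, 0.62 and 0.28, and Birc5 ran from 0.04 in FancgKO_Mdm4Tg to 0.67 in Mdm4Tg.

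Whether the response itself differed between genotypes was tested 3 times, and no member passed in limma, edgeR or DESeq2, nor had any an unadjusted p under 0.05 in any of these tools. The median of FancgKO minus WT was -0.09, with 10 positive (50.8% of all genes). It was 0.04 over the libraries with low Xist, where WT and FancgKO with poly(I:C) each kept only replicate 8. FancgKO_Mdm4Tg minus FancgKO had a median of 0.06 with 28 positive (51.5%), and Mdm4Tg minus WT one of -0.01 with 20 positive (50%). Those with an unadjusted p under 0.05 made up 1.01%, 0.808% and 0.483% of all genes in the 3 tests, and in each 0% of all genes passed.

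Between genotypes given PBS, again no member passed in limma, edgeR or DESeq2. FancgKO against WT had a median difference of 0.13, with 38 positive (48.7% of all genes) and 3 at an unadjusted p under 0.05 in limma, edgeR and DESeq2 alike (3.94% of all genes in limma), and 0% of all genes passed. Over the libraries with low Xist that median was 0.02, with 25 positive (50.7% of all genes). FancgKO with PBS then kept only replicates 2 and 4, of ending d_2. WT with PBS kept replicates 2, 6, 7 and 8, of both endings, so Xist and the ending cannot be told apart there. Anln had the smallest p there. With PBS, as listed above, the 4 FancgKO values of 387.5 to 447 lay above the 4 WT values of 318.5 to 346, a difference of 0.33 ± 0.12 (unadjusted p = 0.0125, adjusted p = 0.999 in limma). Knstrn stood at 178.6 to 218.9 in FancgKO and at 108.7 to 206.2 in WT, a difference of 0.42 ± 0.16 (unadjusted p = 0.0135).

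FancgKO_Mdm4Tg against WT with PBS had a median of 0.06, with 31 positive (48.8% of all genes). At an unadjusted p under 0.05 there were 3 in limma (2.53% of all genes) and 2 each in edgeR and DESeq2, and 0.00792% of all genes passed. Ttk stood at 171.7 to 222.7 in FancgKO_Mdm4Tg and at 124 to 154 in WT, a difference of 0.47 ± 0.14 (unadjusted p = 0.00212). Birc5 differed by 0.47 ± 0.17 (unadjusted p = 0.013 in limma) and Plk1 by -0.56 ± 0.25 (unadjusted p = 0.0366 in limma). Against FancgKO, FancgKO_Mdm4Tg had a median of -0.03, with 18 positive (51.1% of all genes). At an unadjusted p under 0.05 there were 2 in limma (4.47% of all genes) and none in edgeR or DESeq2, 0.00792% of all genes passed, and Plk1 had the smallest p (-0.62 ± 0.25, unadjusted p = 0.0226). FancgKO_Mdm4Tg with PBS held the lowest Plk1 values of all, at 50.38 and 51.01, beside 94.87 in replicate 7. These comparisons share their control libraries. Mdm4Tg against WT had a median of -0.09 with 10 positive (50.5% of all genes). None had an unadjusted p under 0.05 in limma (2.51% of all genes) or DESeq2 and 1 did in edgeR, and 0.00792% of all genes passed the adjusted test.

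Between genotypes given poly(I:C), FancgKO against WT had a median of 0.03 with 28 positive (50.1% of all genes), and 0% of all genes passed. FancgKO_Mdm4Tg against FancgKO had one of 0.00 with 23 positive (51.2%), and Mdm4Tg against WT one of -0.13 with 7 positive (50.4%), and 0.00792% of all genes passed in each. No member passed or had an unadjusted p under 0.05 in limma, edgeR or DESeq2 (0.364%, 0.198% and 0.333% of all genes did in limma). Against WT, the difference in Mdm4Tg was negative for each of the 10 kinases, cyclins and entry regulators, with a median of -0.23, and none of them passed.

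**Figure D5:**
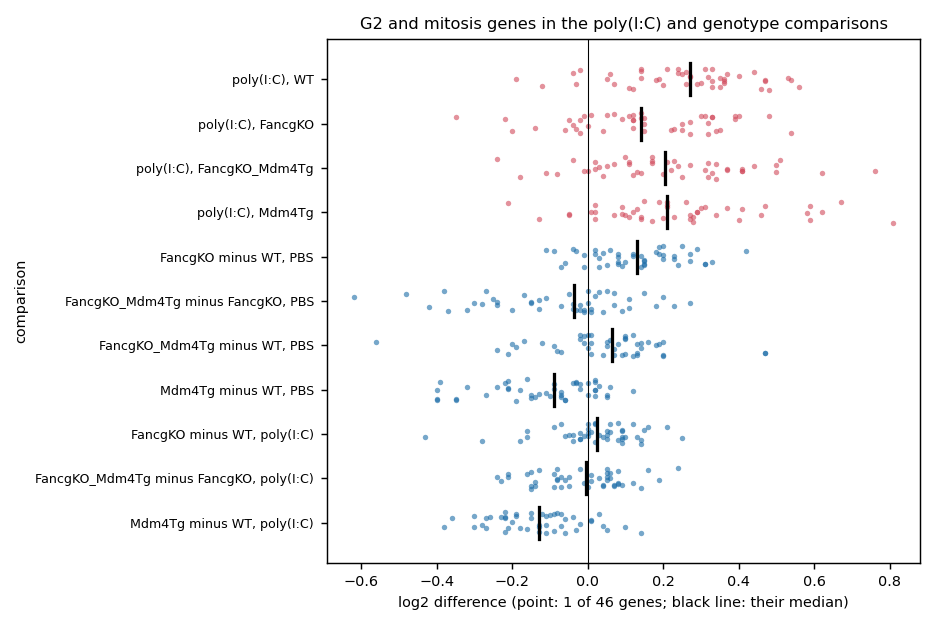
Log2 differences of the 46 genes (points; black lines are medians) in the 4 poly(I:C) against PBS comparisons (red) and the 7 genotype comparisons (blue). Medians of the red rows are 0.14 to 0.27, and those of the blue rows -0.13 to 0.13.

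Other genes of the cell cycle were counted from lists, to be read against the 23.6% of all genes that passed in the averaged comparison (11.9% higher). Of 86 further G2 and mitosis genes, 12 were higher and 1, Ensa, lower (median 0.14), a smaller share than over all genes for either direction together. The 4 with the smallest p were Knl1, a kinetochore scaffold (0.35 ± 0.08, limma adjusted p = 0.00366), Cenpw, a centromere protein (0.54 ± 0.15, 0.0128), Anapc13, an anaphase-promoting complex subunit (0.63 ± 0.20, 0.0248), and Bora, an activator of Aurora A and Plk1 (0.29 ± 0.09, 0.0264). Of 31 S phase genes, 15 were higher and none lower (median 0.25). Among them were Dut, which removes dUTP (0.59 ± 0.10, limma adjusted p = 0.000689), Rrm2, a ribonucleotide reductase subunit (0.68 ± 0.13, 0.0014), the licensing factor Cdt1 (0.46 ± 0.12, 0.00896) and the helicase factor Cdc45 (0.43 ± 0.11, 0.00912).

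Of 16 regulators of G2 and mitosis transcription, Tfdp1 (0.40 ± 0.11, limma adjusted p = 0.0114) and E2f4 (0.43 ± 0.12, 0.0127) were higher. Rbl2, the p130 pocket protein of the DREAM repressor, was lower (-0.21 ± 0.07, 0.0296). These 3 of 16 are a smaller share than the 23.6% of all genes that passed. Foxm1, an activator of mitotic genes, stood at 91.81 to 182.6 in PBS libraries, against 93 to 165 in poly(I:C) libraries, a difference of 0.05 ± 0.13 that did not pass (0.799). Mybl2, which joins MuvB to activate the same promoters, was at 0.32 ± 0.12 (limma adjusted p = 0.0649). Cdkn1a, the p53 target that inhibits cyclin-dependent kinases, was at 0.03 ± 0.24 (0.938).

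Markers of cell types moved with poly(I:C) as well. Rises and falls counted here are those that passed in limma. They are to be read against the 23.6% of all genes that passed (11.9% higher and 11.6% lower). Of 12 myeloid progenitor markers, 11 rose and 1, Csf3r, fell (median 1.75). Their normalised counts summed to 1877 to 14670 in PBS libraries (median 3315), and in poly(I:C) libraries to 6415 to 23646 (median 12303). Of 8 erythroid markers tested, 6 rose, and Alas2 was at 0 in every PBS library. Lymphoid progenitor markers fell in 4 of 8 tested, and their sum ran from 1158 to 4113 in PBS libraries, against 630 to 1591 after treatment. Stem and LSK markers fell in 11 of 14 (median -0.66), with sums of 5394 to 9289 and 3950 to 6605. Megakaryocyte markers rose in 2 of 6 tested, and mast cell and basophil markers in 3 of 6. Of the mature lymphocyte markers reported here only Nkg7 was tested, and it rose, while Ms4a1, Cd3e, Cd3d, Cd8a and Klrb1c were under 10 in every library. For mature neutrophils and monocytes 2 of 3 tested rose (Adgre1 and S100a8), and Ly6g, Camp, Ltf, S100a9 and Mmp8 were under 10 in every library. Over the 12 myeloid progenitor markers the median difference was 0.90 within ending d and 2.39 within d_2. The part of these cell type markers in the differences of the mitosis genes was not tested.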

How the data were processed

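Polyadenylated RNA of sorted LSK cells was read in 24 libraries in 8 groups. The deposited values are a signal per gene and library, counts that the authors normalised. Per the submitters' processing notes STAR and mm10 were used. The counter, annotation, scaling tool and any collapsing of molecular identifiers are not given in the sources used here. Dividing a column by its smallest positive value gave whole numbers (100% of values at a relative tolerance of 1e-06), which were taken as reads.

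The test covered genes that reached a normalised count of 10 in 2 or more libraries. A model of 8 group means was fitted to log2(count + 1) with limma 3.58.1 under R 4.3.3, using its trend option and Benjamini-Hochberg adjustment at 0.05. Recovered reads were tested with edgeR 4.0.16 and DESeq2 1.42.0. Fits were tested on simulated data with larger changes than those of these members and no effect of title ending or replicate number. That check thus does not cover changes of the size seen here. Per-library values are given for the 6 smallest and 4 largest adjusted p-values and for 12 genes fixed by role, and, chosen after its values were seen, for Kif23. The members, lists and averaged comparison were chosen with earlier results of these data known. Exon lengths and positions are from GENCODE vM21 (GRCm38).

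Replicate numbers paired libraries (at least 3 shared numbers, correlations over 0.1 after group means were removed) for poly(I:C) in WT (0.231 to 0.448) and for FancgKO (0.218 to 0.528), FancgKO_Mdm4Tg (0.248 to 0.389) and Mdm4Tg (0.293 to 0.378) against WT with PBS and FancgKO against WT with poly(I:C) (0.392 to 0.617). FancgKO with PBS replicate 4 is alone in its number and is fitted exactly by the block.

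One marker gene is not reported here.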

Additional observations from a re-analysis of the deposited data

Results flagged for a closer look

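Cenpf in WT with PBS replicate 7 stood at 463.2, below the other 3 WT libraries at 524.5 to 536.2. Mki67 in WT with PBS replicate 6 stood at 2554, above the other 3 at 2043 to 2090. Each stands apart from its group by more than Dixon's 95% critical value. These were 2 of 92 groups of 4 tested, and chance flags about 1 in 20. The poly(I:C) response of Ccnb2 was larger in libraries of title ending d_2 than in those of ending d, by 0.74 ± 0.13 (SE, log2; limma adjusted p = 0.0444).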

How the results depend on the processing

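Against 16 genes called in the averaged comparison, libraries of title ending d alone gave 0, those of d_2 alone 27, reads thinned to the smallest library 5 and libraries with low Xist 9, and leaving out 1 library gave 7 to 22. For the 22 reached by leaving out 1 library, the share of all genes is not given here, so it cannot be read against all genes. The count in the averaged comparison was 11 with no filter on low values (8.67% of all genes), 17 with a mean of at least 50 (27.3%) and 17 with TMM scaling (23.6%). It was 22 with the ending as a covariate (34.8%), 18 in edgeR (28.7%), 19 in DESeq2 (29.3%) and 19 with the replicate block (30.9%). All 16 were also called in edgeR, in DESeq2 and with the block. With the replicate number as a block, poly(I:C) in Mdm4Tg called 1 gene, Birc5 (0.75 ± 0.16, limma adjusted p = 0.0123; 4.85% of all genes), but only 2 numbers are shared there. The block changed no count of members in the other single comparisons. For poly(I:C) in WT no member passed with the block, where 6.88% of all genes did, against 0.0158% without it. In d_2 alone, WT called 1 (Aurkb), FancgKO 1 (Ccnb2), FancgKO_Mdm4Tg 2 (Ccnb1 and Plk1) and Mdm4Tg 1 (Ccnb2), where 3.96%, 2.08%, 3.51% and 2.23% of all genes passed. In d_2 every poly(I:C) library was replicate 8, as given above. Leaving out 1 library gave 0 to 1 in WT. None of the 16 genes changed sign in the averaged comparison under these settings.

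Signs of uncalled genes did turn. In d alone Cdc25b was -0.03, Nek2 -0.04, Knstrn -0.07, Kif11 -0.05, Kif2c -0.14, Tpx2 -0.09, Ckap2 -0.05, Dlgap5 -0.15 and Ect2 -0.11. In d_2 alone Ndc80 was 0.12 and Nusap1 0.09. With the block Knstrn was -0.02 and Dlgap5 -0.06. Dlgap5 was -0.03 with the ending as a covariate, -0.04 with thinned reads and -0.03 with low Xist. With low Xist Ndc80 was 0.03 and Nusap1 0.04, and Ndc80 was 0.01 in edgeR and in DESeq2. Leaving out 1 library moved Ndc80 between -0.09 and 0.05, Nusap1 between -0.05 and 0.02 and Dlgap5 between -0.02 and 0.11. The causes were not tested. Depth limits the lowest gene most, since Cdc25c rests on as few as 11 reads in 1 library.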
